A study of Bos taurus with 6 samples.

Results

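The 4 genes described here encode the core of fatty acid synthesis, and they are 4 of the 24616 Ensembl gene IDs counted in longissimus dorsi muscle of Hanwoo (Korean cattle). They were chosen by ID: ENSBTAG00000017567 for ACACA, ENSBTAG00000015980 for FASN, ENSBTAG00000045728 for SCD and ENSBTAG00000007884 for SREBF1. The symbols come from the definition of the set, since the count files hold IDs alone. The longissimus dorsi is the long muscle beside the spine, and mRNA from it was sequenced in 3 bulls, which are intact males, and 3 steers, which are castrated males. Bulls 20, 22 and 23 were 746 days old. Steer 439 was 996 days old, Steer 456 was 950 and Steer 458 was 930, all older than the bulls, and the effects of castration and of age cannot be told apart. The labels give neither the age at castration nor the diet. Each library stands for 1 animal.

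Fatty acid synthesis turns acetyl-CoA into long-chain fatty acids. ACACA, acetyl-CoA carboxylase alpha, makes malonyl-CoA in the committed step, FASN, fatty acid synthase, extends it to palmitate, and SCD, stearoyl-CoA desaturase, places a double bond into saturated chains to give mainly oleate. SREBF1 encodes SREBP-1, a membrane-bound transcription factor that is cut and released to the nucleus and that activates lipogenic genes, ACACA, FASN and SCD among them. In cattle most of this synthesis takes place in adipose tissue, and a piece of muscle contains fibres together with the fat cells of its marbling. In such bulk tissue a smaller number of cells of one type and less RNA per cell cannot be told apart.

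FASN was lower in bulls than in steers, with a 6.88-fold difference, and it was the only 1 of the 4 genes to pass the test (edgeR quasi-likelihood test, adjusted p = 0.0489). This call was lost in 6 of 8 other fits of the same 6 animals. ACACA differed by 4.09-fold and SCD by 3.13-fold in the same direction without passing, and SREBF1 by 1.51-fold in the other direction, also without passing. In steers all 3 enzyme genes were most abundant in Steer 456, while SREBF1 was near the bull level in Steer 439 and lower in the other 2 steers. Across all 12769 genes tested, 4.10% passed in either direction and 2.06% were lower in bulls. All 4 genes passed the filter on low counts.

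The libraries held 17027226 to 27490776 gene counts each. Steer 456 stood apart from the others: its value exceeded those of the other 5 by 2-fold or more in 628 of the tested genes (4.92%), and the same count was 12 to 42 in each of the others. Among low values Steer 458 stood apart as well: 238 genes in Steer 456 and 227 in Steer 458 were lower by 2-fold or more than in any other animal, against 23 to 55 elsewhere. Values without Steer 456 are given beside the results, and those without Steer 458 where a call or a value moved. The part of either animal's other differences in the results was not tested. Abundance is given as CPM, counts per 1000000 gene counts of a library. CPM is not corrected for gene length, so levels are compared between animals and not between genes. The labelled tissue was not checked against muscle or fat cell markers, because the IDs of such markers are not paired with symbols in the sources used here.

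ACACA had 248 reads in Bull 20, 278 in Bull 22 and 297 in Bull 23, which corresponds to 11.4, 14.5 and 15.2 CPM. In steers it had 832 reads in Steer 439, 1821 in Steer 456 and 648 in Steer 458, or 33.5, 106.9 and 23.6 CPM. Every steer was thus above every bull, and the steer nearest to the bulls was Steer 458, at 1.72 times the bull mean. Group means were 13.7 ± 2.02 CPM in bulls and 54.7 ± 45.5 CPM in steers (SD, n = 3). The log2 fold change, coded bull minus steer, was -2.03 ± 0.48 (SE), with a 95% interval of -3.14 to -0.93. The unadjusted p of 0.00273 became 0.0579 after Benjamini-Hochberg adjustment over all genes in edgeR, just short of the threshold of 0.05. Without Steer 456 the log2 fold change was -1.19 ± 0.18 (SE) and passed (edgeR adjusted p = 0.0119). It also passed without Steer 439 (-2.32 ± 0.53 SE, edgeR adjusted p = 0.0498). Without Bull 20, Bull 22, Bull 23 or Steer 458 it did not pass (edgeR adjusted p = 0.248, 0.182, 0.210 and 0.0734). Those fits called 0.0531% to 0.591% of all tested genes.

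FASN spanned the widest range of log2 CPM of the 4 genes. It was counted 690, 957 and 851 times in Bulls 20, 22 and 23, or at 31.8, 49.8 and 43.7 CPM. Steer 439 had 3209 reads (129.2 CPM), Steer 456 had 10403 (611.0 CPM) and Steer 458 had 2850 (103.7 CPM). No steer overlapped the bulls, and the lowest steer was at 2.48 times the bull mean, Steer 439 at 3.1 times and Steer 456 at 14.6 times. Means were 41.7 ± 9.17 CPM in bulls and 281.3 ± 285.8 CPM in steers (SD, n = 3), so the SD of the steers exceeded their mean. The log2 fold change was -2.78 ± 0.62 (SE), with a 95% interval of -4.21 to -1.35 (unadjusted p = 0.00194 in edgeR). By size of change FASN ranked 112 among the 12769 tested genes and by p it ranked 507, so its call sits at the edge of the called genes. Without Steer 456 the log2 fold change was smaller, -1.61 ± 0.19 (SE), and the edgeR adjusted p was 0.00512. Without Bull 20, Bull 22, Bull 23 or Steer 458 FASN no longer passed, with edgeR adjusted p of 0.232, 0.159, 0.203 and 0.0734. Its log2 fold changes in those fits were -2.67, -2.97, -2.82 and -3.19. Few genes of any kind passed there: 0.0769%, 0.0531%, 0.0532% and 0.591% of all tested genes, against 4.10% with all animals.

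SCD was the enzyme gene whose groups overlapped. Bulls 20, 22 and 23 had 797, 1024 and 895 reads, at 36.7, 53.3 and 45.9 CPM. Steers 439, 456 and 458 had 1956, 5148 and 1040 reads, at 78.8, 302.3 and 37.8 CPM. Steer 458 thus lay between Bull 20 and Bull 23, whereas Steer 439 was at 1.74 times and Steer 456 at 6.68 times the bull mean. Means were 45.3 ± 8.32 CPM in bulls and 139.6 ± 142.4 CPM in steers (SD, n = 3). The log2 fold change was -1.65 ± 0.62 (SE), with a 95% interval of -3.06 to -0.23 and an edgeR adjusted p of 0.165 (unadjusted p = 0.0279). Without Steer 456 it came to -0.48 ± 0.27 on the log2 scale (SE; edgeR adjusted p = 0.299). Without Steer 458 it was -2.12 ± 0.52 (SE; edgeR adjusted p = 0.107).

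SREBF1, the regulator, was steady among bulls and split the steers. It had 6152, 6008 and 6377 reads in Bulls 20, 22 and 23, or 283.1, 312.6 and 327.1 CPM. Steer 439 had 7351 reads (296.0 CPM) and lay within the range of the bulls. Steer 456 had 2546 reads (149.5 CPM) and Steer 458 had 3672 (133.6 CPM), at 0.486 and 0.434 times the bull mean. With TMM scaling, which allows for differences in library composition, those 2 steers changed places, at 143.7 and 150.4 CPM, and both stayed below all other animals. Such a pair of lowest values, with Steer 456 the lowest under this scaling, was found for 1177 of the tested genes (9.22%). Means were 307.6 ± 22.4 CPM in bulls and 193.0 ± 89.5 CPM in steers (SD, n = 3). The log2 fold change of 0.59 ± 0.31 (SE) had a 95% interval of -0.11 to 1.30 (edgeR adjusted p = 0.304, unadjusted p = 0.0889). Without Steer 456 it was 0.41 ± 0.27 (SE; edgeR adjusted p = 0.378), and without Steer 458 0.42 ± 0.32 (SE; edgeR adjusted p = 0.50). The interval with all animals includes 0 and also a level more than 2-fold higher in bulls. Without Steer 439 the log2 fold change was 0.998 ± 0.182 (SE) and passed (edgeR adjusted p = 0.0312). The library of Steer 439 also had the lowest share of reads aligned to more than one place, 16.9% against 24.5% to 28.2% in the others, and the part of this in the result was not tested.

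**Figure D1:**
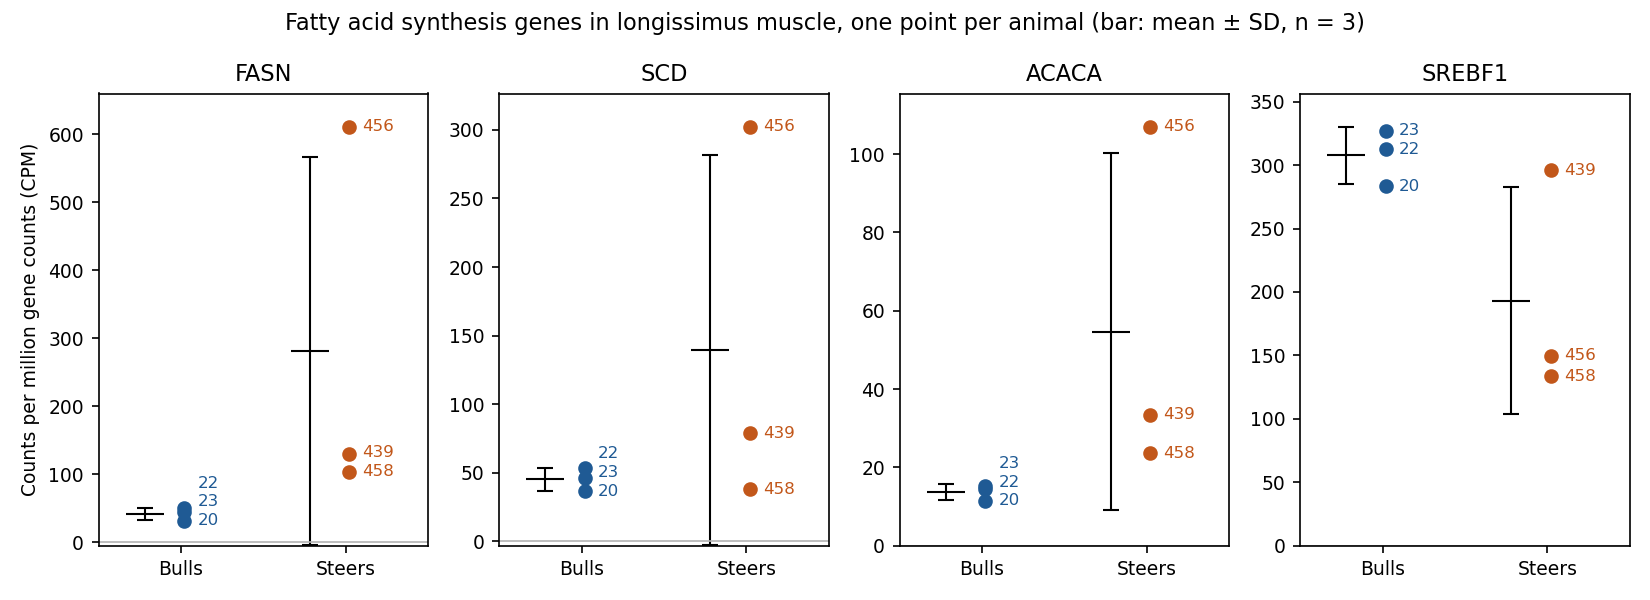
Each panel plots CPM on the vertical axis for 1 gene, with 1 numbered point per animal (bulls left, steers right) and a bar for the group mean ± SD (n = 3). In FASN and ACACA the 3 steers lie above the 3 bulls, in SCD Steer 458 lies among the bulls, and in SREBF1 Steer 439 does.

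At an unadjusted p under 0.05, 3 of the 4 genes differed, all 3 lower in bulls, against 22.4% of the tested genes in either direction and 11.6% lower in bulls. Every bull lay below every steer in 2 of the 4 genes, FASN and ACACA, against 14.0% of all tested genes. In 7.57% of tested genes every bull lay below every steer and Steer 456 was the highest, as in these 2. The median log2 fold change of the 4 genes was -1.84, and that of all tested genes was -0.01, with a median absolute size of 0.34. Without Steer 456 the medians were -0.83 and 0.01. ACACA ranked 288, SCD 530 and SREBF1 3663 of 12769 by absolute size of change. The 95% intervals of all 4 genes were wide, as the plot against abundance shows.

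**Figure D2:**
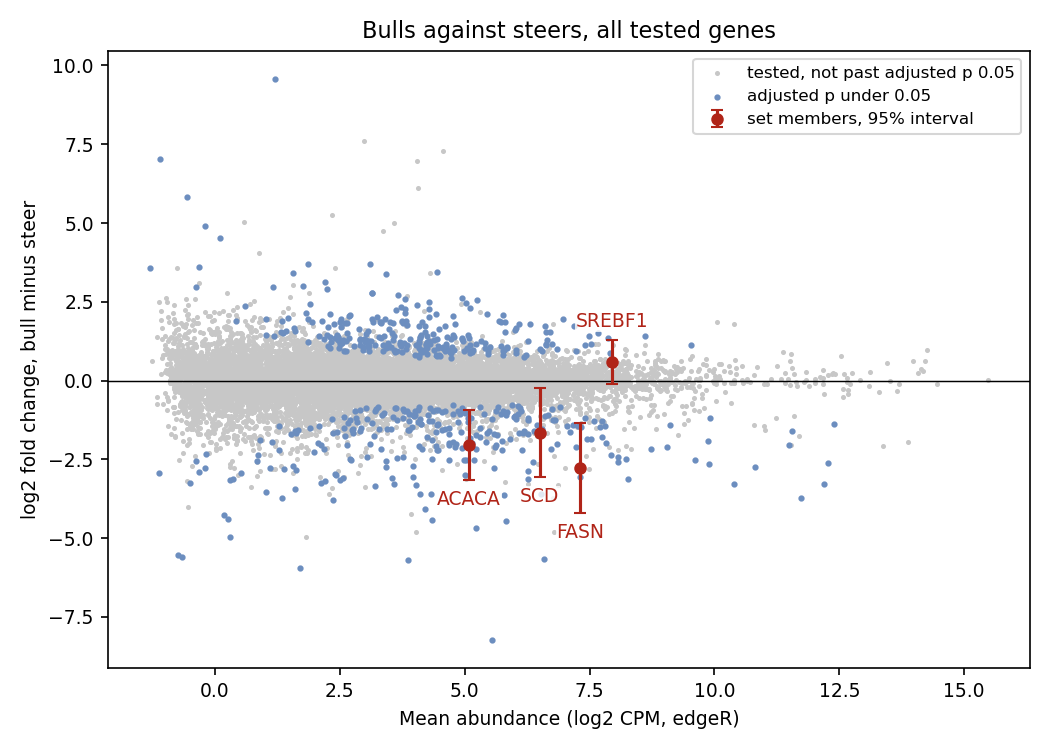
Log2 fold change (bull minus steer, vertical axis) is plotted against mean abundance in log2 CPM (horizontal axis) for the 12769 tested genes, with called genes in blue and the 4 fatty acid synthesis genes in red with 95% intervals. FASN, ACACA and SCD lie at -2.78, -2.03 and -1.65 and SREBF1 at 0.59.

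With all animals, the steers differed from one another more than the bulls did in all 4 genes. The SD of log2 CPM was 0.31 in bulls and 1.30 in steers for FASN, 0.25 and 1.41 for SCD, 0.17 and 1.04 for ACACA, and 0.06 and 0.59 for SREBF1. Over all tested genes the median SD was 0.18 in bulls and 0.39 in steers. For the enzyme genes the spread among steers was thus in the upper tail: 3.27% of tested genes had a larger SD in steers than FASN, 2.28% than SCD and 7.17% than ACACA. For SREBF1 the share was 26.7%. In bulls SREBF1 was among the steadier genes, with 90.2% of tested genes having a larger SD. These shares are over genes of all abundances, and genes of like abundance were not compared separately. The highest steer exceeded the lowest by 5.89-fold in FASN, 7.99-fold in SCD, 4.54-fold in ACACA and 2.22-fold in SREBF1. Among the bulls these folds were 1.57, 1.45, 1.33 and 1.16. For FASN and ACACA the spread rested largely on Steer 456, and for SCD only in part. Between Steers 439 and 458 alone, the SD of log2 CPM was 0.12 for FASN, below that of the bulls, and 0.25 for ACACA. It was 0.64 for SCD and 0.70 for SREBF1, against a median of 0.24 over all tested genes. The exact Poisson 95% interval for ACACA, the gene with the lowest counts, was 10.0 to 12.9 CPM in Bull 20. That of Bull 22 was 12.8 to 16.3 CPM and overlapped it slightly. The interval of Bull 23, 13.6 to 17.1 CPM, lay wholly above that of Bull 20. Whether these bulls differed in ACACA beyond counting error was not tested. Such intervals cover counting error only.

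The 3 enzyme genes had similar patterns over the 6 animals, which for SCD rested on Steer 456. In all 3 genes Bull 20 had the lowest value and Steer 456 the highest, with Steer 439 next. Under TMM scaling Steer 456 exceeded the next animal by 4.48-fold in FASN, 3.64-fold in SCD and 3.02-fold in ACACA. Likeness of pattern was measured as the root mean square difference between 2 genes' log2 CPM values, each centred on its mean over the 6 animals, so that a smaller value means a closer pattern. FASN and ACACA differed by 0.36, SCD and ACACA by 0.38, and FASN and SCD by 0.63. Of 12768 genes, ranked from the closest, ACACA was at rank 20 and SCD at rank 144 seen from FASN, and ACACA was at rank 76 and FASN at rank 619 seen from SCD. Without Steer 456, FASN and ACACA differed by 0.25, with ACACA at rank 37 seen from FASN. SCD then differed by 0.64 from FASN and 0.42 from ACACA, at ranks 1754 and 1272 seen from those genes, and by 0.47 from SREBF1. Seen from SCD without Steer 456, ACACA was at rank 4305, SREBF1 at 5854 and FASN at 9841 of 12768. With all animals SREBF1 differed from the enzymes by 1.35 to 1.81 log2 units, and seen from SREBF1, FASN ranked 12652, ACACA 12448 and SCD 12314 of 12768, near the far end of all genes. Without Steer 456 these ranks were 12332, 11718 and 6067, so SCD was no longer among the most distant. These ranks describe the same 6 libraries and share the difference between the groups, the depth of each library and the high values of Steer 456.

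**Figure D3:**
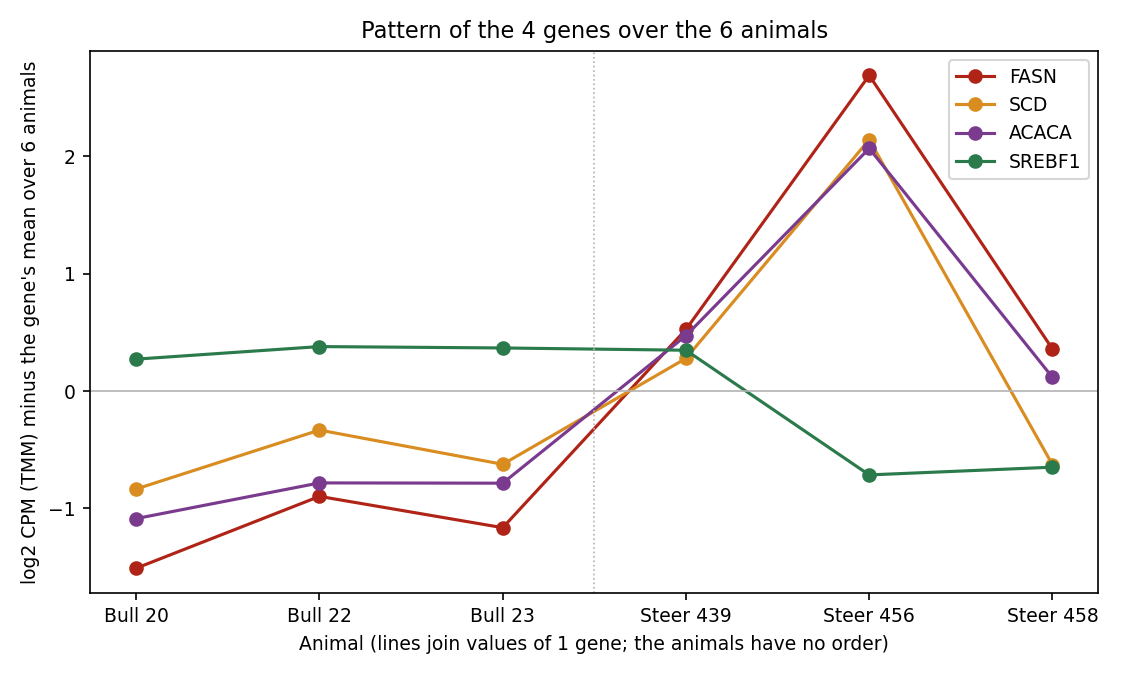
The vertical axis gives log2 CPM (TMM) minus the mean of the gene over the 6 animals, which stand along the horizontal axis in no order, and lines join the values of 1 gene. FASN, SCD and ACACA peak in Steer 456, and SREBF1 is low in Steers 456 and 458.

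Outside the set, the 2 genes with the pattern most like the 4 members by the mean of this measure were ENSBTAG00000013303 and ENSBTAG00000003880, which no source used here pairs with a symbol. They were chosen on all 6 animals, Steer 456 included. ENSBTAG00000013303 had 31.4, 39.3 and 40.0 CPM in Bulls 20, 22 and 23 and 80.8, 214.8 and 51.1 CPM in Steers 439, 456 and 458. Its mean difference from the 4 members was 0.58 log2 units, 0.17 from ACACA and 1.30 from SREBF1. ENSBTAG00000003880 had 4.65, 5.26 and 5.90 CPM in the bulls and 13.4, 45.9 and 7.20 CPM in the steers, with a mean difference of 0.59. Both are closest to ACACA and, like it, did not overlap between the groups, with every bull below every steer. The choice by likeness of pattern favours such a result, which 14.0% of all tested genes showed. Neither passed the test between bulls and steers (edgeR adjusted p = 0.0716 and 0.0787, log2 fold changes -1.69 ± 0.44 and -2.10 ± 0.57 SE).

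Ratios between 2 of the genes within a library show whether they differed between the groups by the same factor, since such a ratio depends neither on library scaling nor, when compared between groups, on gene length. The log2 ratio of SCD to FASN was 0.21, 0.10 and 0.07 in Bulls 20, 22 and 23 and -0.71, -1.01 and -1.45 in Steers 439, 456 and 458. SCD was thus lower relative to FASN in every steer than in any bull, with means of 0.13 ± 0.07 in bulls and -1.06 ± 0.37 in steers (SD, n = 3), a 2.28-fold difference. The ratio of SCD to ACACA was also lower in steers, with a mean of 1.14 ± 0.42 against 1.71 ± 0.15 in bulls (SD, n = 3). The ratio of FASN to ACACA was higher in steers, at 2.20 ± 0.29 against 1.59 ± 0.17 (SD, n = 3). The difference between the groups was thus largest in FASN, then in ACACA, then in SCD.

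With all 6 animals the ratios to the regulator differed by more than those among the enzymes. FASN over SREBF1 had log2 values of -3.15, -2.65 and -2.90 in Bulls 20, 22 and 23 and -1.20, 2.03 and -0.37 in Steers 439, 456 and 458, a difference of means of -3.06 (bull minus steer). ACACA over SREBF1 differed by -2.45 and SCD over SREBF1 by -1.87. Without Steer 456 these differences were smaller, -2.12 for FASN, -1.67 for ACACA and -0.91 for SCD, each relative to SREBF1. Without Steer 439 they were -3.73, -2.996 and -2.37. Among the enzymes, the differences without Steer 456 were 1.21 for SCD over FASN, 0.76 for SCD over ACACA and -0.45 for FASN over ACACA. With all animals they were 1.19, 0.58 and -0.61. So without Steer 456, SCD over FASN differed by more than SCD over SREBF1. Steer 439 combined a FASN level above the bulls with an SREBF1 level within their range, with FASN at 3.1 times and SREBF1 at 0.962 times the bull mean. In Steer 458 FASN was at 2.48 times, ACACA at 1.72 times, SCD at 0.835 times and SREBF1 at 0.434 times the bull mean. In all 6 ratios the 3 bulls lay entirely to one side of the 3 steers, each with an exact 2-sided permutation p of 0.1 (0.1 after Benjamini-Hochberg adjustment over the 6), the smallest p that 3 animals against 3 allow. The 6 ratios come from 4 genes and are not independent. Over all 81517296 pairs of tested genes, the ratio did not overlap between the groups in 30.7%.

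**Figure D4:**
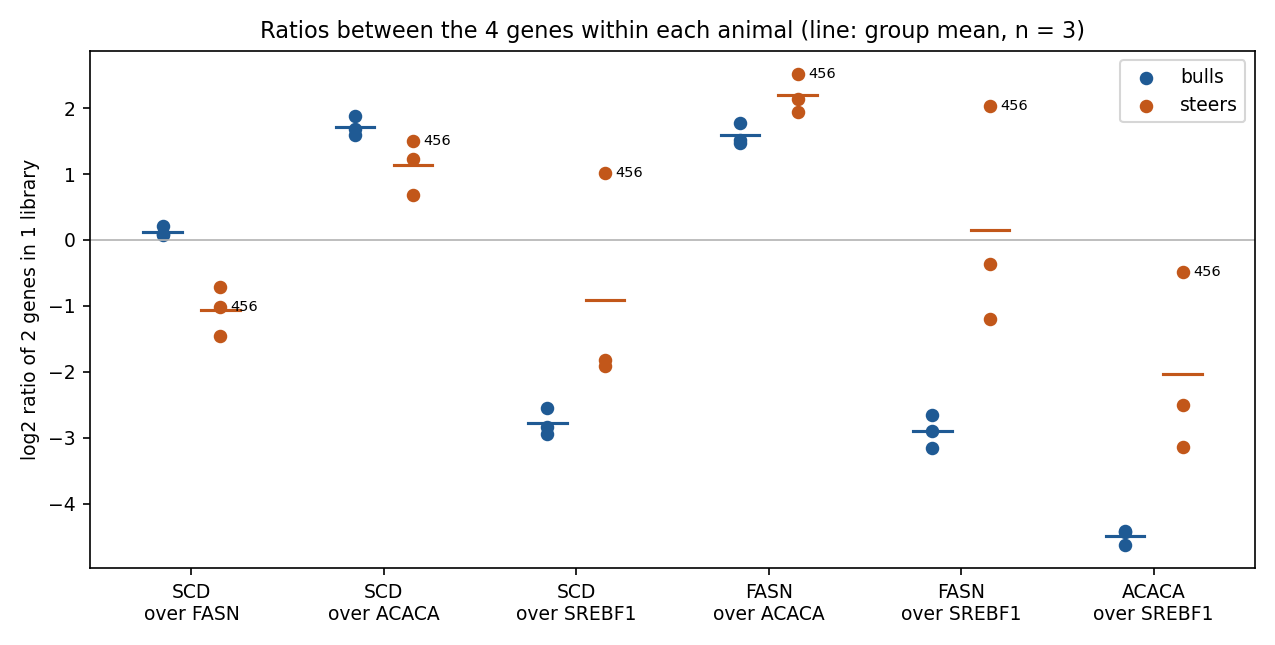
The vertical axis gives the log2 ratio of 2 genes in 1 library, for the 6 pairs along the horizontal axis, with 1 point per animal, a line at each group mean (n = 3) and Steer 456 marked. The groups do not overlap in any pair, and the bulls lie closely together, for SCD over FASN between 0.07 and 0.21.

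The calls for the 4 genes varied with the test, while their directions stayed the same in every fit run. DESeq2 called 3 of the 4 genes, FASN (log2 fold change -2.81, DESeq2 adjusted p = 2.78e-05), ACACA (-2.06, 0.000518) and SCD (-1.68, 0.0341), in a fit that called 11.8% of all genes. limma voom with weights per group, which allows the steers a larger spread, called FASN (limma adjusted p = 0.0397) and ACACA (0.0425), with 3.91% of all genes called. With edgeR and other scaling factors or filters, and with limma voom without group weights, none of the 4 passed. Those fits called 2.81% to 3.81% of all genes, and FASN had an edgeR or limma adjusted p between 0.0522 and 0.110. In edgeR without Steer 456, FASN and ACACA passed, and 7.77% of all genes were called. Without Steer 439, FASN, ACACA and SREBF1 passed, and 7.67% were called.

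**Figure D5:**
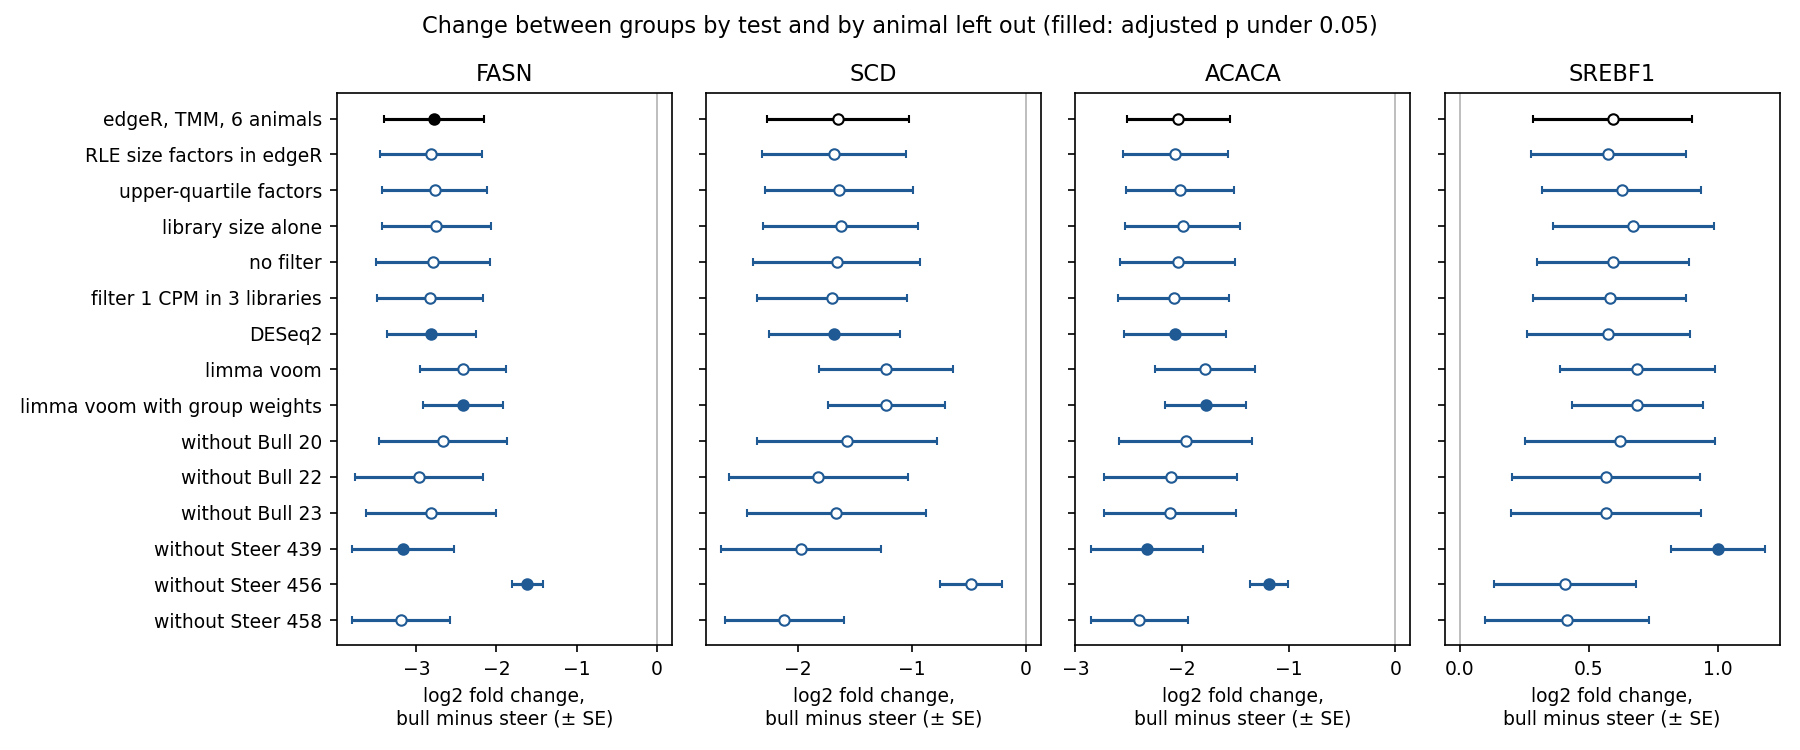
The horizontal axes give the log2 fold change (bull minus steer) ± SE of each gene under the tests, scaling factors and filters on the vertical axis and with each animal left out, and filled points have an adjusted p under 0.05. FASN, SCD and ACACA stay below 0 and SREBF1 above 0 throughout, and the changes of the enzyme genes are smallest without Steer 456.

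Reads of neighbouring genes may also bear on the counts. In the RefSeq table of another assembly, ARS-UCD2.0, SREBF1 overlaps RAI1 and MIR33B, ACACA overlaps C19H17orf78 and 2 noncoding genes, FASN overlaps MIR10179, and SCD overlaps no other gene. The labels do not say whether the counting used strand, and the effect of such overlaps on the counts was not tested. Nor can it be told how many reads of these genes were among those aligned to more than one place.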

How the data were processed

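Poly(A) RNA of 6 animals was sequenced. The deposited files give unnormalized read counts by Ensembl gene ID, made by the authors with TopHat2 2.0.2 on UMD3.1 and HTSeq 0.5.3p3, per the submitters' processing notes. The 5 summary rows of each file name no gene and held 29.3% to 39.9% of its reads; they were left out. The 4 genes and all lists were chosen with earlier results of these data known.

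Bulls and steers were grouped by title. edgeR 4.0.16 (R 4.3.3) was fitted to all genes passing filterByExpr, with TMM factors, robust quasi-likelihood F tests and Benjamini-Hochberg adjustment at 0.05. SE is the log2 fold change over the square root of F. Log2 CPM used a prior count of 2. The fit was tested on simulated data with the same spread in both groups, whereas the steers here had the larger median spread. Alternatives were other scaling factors and filters, DESeq2 1.42.0 on the same filtered genes, limma 3.58.1 and leaving out each animal. Beyond the 4 genes, the 2 genes with the most similar pattern were to be named. None of the 24616 IDs matched the reference table, so lists of related genes and cell type markers, fixed by symbol, were not used. The labels do not describe separate collection or batches, so whether these coincide with group cannot be told. The edgeR p-values set the difference between groups against the spread between animals within a group. They cannot separate it from a difference in collection or processing between the groups.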

Additional observations from a re-analysis of the deposited data

How the results depend on the processing

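No paired analysis was possible because no animal number is shared between bulls and steers. None of the 4 genes changed direction under any alternative run. FASN lost its call in edgeR with RLE factors (log2 fold change -2.81), upper-quartile factors (-2.77), library size alone (-2.75), no filter (-2.79) and a filter of 1 CPM in 3 libraries (-2.83), and in limma voom (-2.42). The called members numbered 0 in these 6 fits, against 1 in the fit reported, 3 with DESeq2 and 2 with voom and group weights. Of all tested genes, these 6 fits called 2.81% to 3.81%. The fit reported called 4.10%, DESeq2 11.8% and voom with group weights 3.91%. SCD (-1.68) and ACACA (-2.06) gained a call in DESeq2, and ACACA (-1.78) in voom with group weights. DESeq2 called 1507 genes in all, against 524. Library size alone shifted all genes by a median of 0.09 on the log2 scale.

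With each animal left out, edgeR gave log2 fold changes of -3.19 to -1.61 for FASN, -2.12 to -0.48 for SCD, -2.40 to -1.19 for ACACA and 0.41 to 0.998 for SREBF1, with 0 to 3 of the 4 genes and 7 to 1019 of all genes called. These fits had 1875 to 3557 genes with an unadjusted p under 0.05. DESeq2 with each animal left out was added after seeing the data. It gave log2 fold changes of -3.19 to -1.62 for FASN, -2.11 to -0.48 for SCD, -2.40 to -1.19 for ACACA and 0.40 to 0.99 for SREBF1, and called FASN and ACACA in all 6 fits, SCD in 2 and SREBF1 in 1, with 2 to 4 of the 4 genes and 622 to 2055 of all genes called. All 6 ratios kept their direction with each animal left out and without a pseudocount; leaving out Steer 456 moved those to SREBF1 most, from -3.06 to -2.12 for FASN. The medians, patterns and spreads without Steer 456 were also added after seeing the data. The cause of the changed calls was not tested. The lowest count of the 4 genes was 248, and the effect of depth was not tested.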
